A study of Homo sapiens with 6 samples.

Results

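A set of 9 condensate genes was examined for DNA G-quadruplex (G4) peaks in U2OS cells, an established human osteosarcoma line: NEAT1, MALAT1, TCOF1, NPM1, PML, G3BP1, CAPRIN1, EWSR1 and TAF15. They were chosen by name, because their RNA or protein builds or joins condensates such as nuclear bodies or stress granules. The choice was made with earlier results of these data known. The set was 9 of the 58419 genes of the RefSeq table on chromosomes 1 to 22 and X. A peak was assigned to a gene when it lay inside the gene or within 1 kb of either gene end. G4s form when guanine-rich DNA strands fold into stacks of guanine tetrads, and they were captured with the antibody BG4 by chromatin immunoprecipitation and sequencing (ChIP-seq). The first group of cells was untreated (Ctrl) and the other received 1,6-hexanediol (HD); the labels name neither its dose nor its duration. Each group had 2 ChIP libraries and 1 input library, from the same cell line with no genetic change named, and 1 peak list per group was analysed. Peak positions on DNA carry no marker of the cell type, so the line was not checked. In bulk chromatin, fewer cells with a structure and fewer structures per cell cannot be told apart.

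Condensates are membraneless assemblies held together by many weak contacts between proteins and RNA, and 1,6-hexanediol is an alcohol that dissolves many of them. NEAT1 and MALAT1 are long non-coding RNAs: NEAT1 is the scaffold of paraspeckles, and MALAT1 gathers at nuclear speckles. Treacle (TCOF1) and nucleophosmin (NPM1) organise the nucleolus, and PML builds the nuclear bodies that carry its name. G3BP1 nucleates stress granules, the cytoplasmic assemblies of stalled messenger RNAs, and CAPRIN1 is its binding partner there. EWSR1 and TAF15 belong to the FET family of RNA-binding proteins, whose prion-like domains drive phase separation.

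Of the 9 genes, 7 carried a peak, and the untreated and treated lists marked partly different members. The Ctrl list of 3507 peaks marked 4 genes (NEAT1, MALAT1, TCOF1 and NPM1) and the HD list of 2269 peaks marked 5 (MALAT1, TCOF1, G3BP1, CAPRIN1 and EWSR1). MALAT1 and TCOF1 were marked in both lists, NEAT1 and NPM1 in Ctrl only, and G3BP1, CAPRIN1 and EWSR1 in HD only. Of the peaks compared by position, 38.5% of 3376 in Ctrl and 59.7% of 2172 in HD overlapped a peak of the other list. A peak without a partner in the other list was therefore common, and not particular to the members. PML and TAF15 had no peak in either list. Of the 7 protein-coding members, 2 were marked in Ctrl and 4 in HD, where 13.3% and 9.54% of 19821 protein-coding genes were marked by the same rule. In both lists it was 1 coding member against 6.24% of coding genes, while 7.02% of coding genes were marked in Ctrl only and 3.30% in HD only. Thus 1391 of the 2627 coding genes marked in Ctrl were marked in Ctrl only, and 655 of the 1891 marked in HD in HD only. Both lncRNA members were marked in Ctrl and 1 in HD, against 4.16% and 2.85% of 17904 lncRNA genes. Both lists marked 1.99% of lncRNA genes, Ctrl only 2.16% and HD only 0.860%. Either list marked 5 of the 7 coding members against 16.6% of coding genes, and both of the lncRNA members against 5.02% of lncRNA genes. Each marked gene had a single peak per list. No test was made of these counts, since the members were chosen with earlier results of these data known.

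No value per library was used, so no difference between the lists has a replicate error. All 2269 HD peak names carry the number of replicate 1, so it may hold calls from 1 library only, although the labels tie it to both. ChIP fragments at each summit were counted back from the deposited fold and p-value, as was the number expected from input. ChIP depth recovered in the same way was 19601 fragments per Mb in Ctrl and 27539 fragments per Mb in HD, a ratio of 1.41. Intervals are exact 95% Poisson intervals on these fragment numbers, take the input as known, and cover counting error only.

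The promoters under the peaks are shown for the 5 marked members that have an entry in the RefSeq promoter table (GRCh38.p14). Each window runs from 250 bases before to 50 bases after an annotated start site, on the plus strand for all 5 genes. Capitals mark runs of at least 3 G or at least 3 C, the C runs being G runs of the opposite strand.
MALAT1, chr11:65497488-65497787, overlapped by the Ctrl and HD peaks: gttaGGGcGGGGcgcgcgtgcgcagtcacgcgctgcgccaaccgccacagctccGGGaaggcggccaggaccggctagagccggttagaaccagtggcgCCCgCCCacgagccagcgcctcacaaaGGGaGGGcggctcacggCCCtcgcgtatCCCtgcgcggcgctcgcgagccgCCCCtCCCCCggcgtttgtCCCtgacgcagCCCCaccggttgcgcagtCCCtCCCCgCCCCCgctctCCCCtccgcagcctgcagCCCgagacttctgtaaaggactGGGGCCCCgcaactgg
NPM1, chr5:171387599-171387898, inside the Ctrl peak: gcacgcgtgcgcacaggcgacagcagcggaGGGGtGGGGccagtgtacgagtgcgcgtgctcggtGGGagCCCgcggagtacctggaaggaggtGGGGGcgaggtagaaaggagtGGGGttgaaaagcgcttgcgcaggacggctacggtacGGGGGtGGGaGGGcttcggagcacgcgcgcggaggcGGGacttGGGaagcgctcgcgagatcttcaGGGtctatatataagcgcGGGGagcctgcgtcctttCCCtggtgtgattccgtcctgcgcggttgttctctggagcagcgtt
G3BP1, chr5:151771704-151772003, overlapped by the HD peak: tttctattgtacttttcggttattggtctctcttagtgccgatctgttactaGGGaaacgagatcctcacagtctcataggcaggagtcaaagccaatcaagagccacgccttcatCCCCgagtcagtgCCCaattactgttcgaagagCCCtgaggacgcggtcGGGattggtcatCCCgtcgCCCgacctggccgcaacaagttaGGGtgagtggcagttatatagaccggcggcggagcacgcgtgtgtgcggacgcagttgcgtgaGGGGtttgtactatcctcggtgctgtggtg
CAPRIN1, chr11:34051481-34051780, overlapped by the HD peak: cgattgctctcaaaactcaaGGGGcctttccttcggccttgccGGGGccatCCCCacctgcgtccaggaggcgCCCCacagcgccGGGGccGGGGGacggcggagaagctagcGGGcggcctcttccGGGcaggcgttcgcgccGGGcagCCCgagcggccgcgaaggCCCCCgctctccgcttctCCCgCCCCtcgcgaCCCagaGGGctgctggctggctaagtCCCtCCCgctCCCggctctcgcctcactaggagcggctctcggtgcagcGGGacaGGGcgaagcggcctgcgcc
EWSR1, chr22:29268018-29268317, overlapped by the HD peak: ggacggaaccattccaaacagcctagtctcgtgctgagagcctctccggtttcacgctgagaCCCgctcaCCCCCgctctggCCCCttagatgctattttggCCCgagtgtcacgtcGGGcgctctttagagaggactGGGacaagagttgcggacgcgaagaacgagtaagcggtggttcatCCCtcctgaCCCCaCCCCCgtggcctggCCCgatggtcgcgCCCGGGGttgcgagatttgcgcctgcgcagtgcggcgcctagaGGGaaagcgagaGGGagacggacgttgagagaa

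The promoters of these genes ranged widely in G and C content. CAPRIN1 (74.0% GC) and MALAT1 (73.7%) stood above the median of windows touched by a Ctrl peak, 68.7%. NPM1 (66.0%), EWSR1 (62.7%) and G3BP1 (55%) stood below it, and G3BP1 also below the median of all 34961 windows, 58.7%. A G4 motif was searched on both strands as 4 or more runs of at least 3 G, with 1 to 7 bases of any kind between runs. Of the windows shown, that of MALAT1 alone held it, as 23 bases on the opposite strand from position -25 to -3 relative to the start site, CCCtCCCCgCCCCCgctctCCCC. The motif occurred in 25% of all windows, 38.9% of those touched by a Ctrl peak and 38.4% of those touched by an HD peak. When up to 12 bases were allowed between runs, a second stretch appeared in MALAT1 (-73 to -40) and a stretch of 44 bases in EWSR1 (-67 to -24). Such a stretch was held by 37.9% of all windows, 59.5% of those touched by a Ctrl peak and 59.9% of those touched by an HD peak. NPM1 held 12 G runs, but no 4 of them stood close enough, and G3BP1 held 4 G runs and 5 C runs. A match of letters is not a measured structure, and the summits at NPM1, G3BP1 and EWSR1 lay outside these windows.

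**Figure D1:**
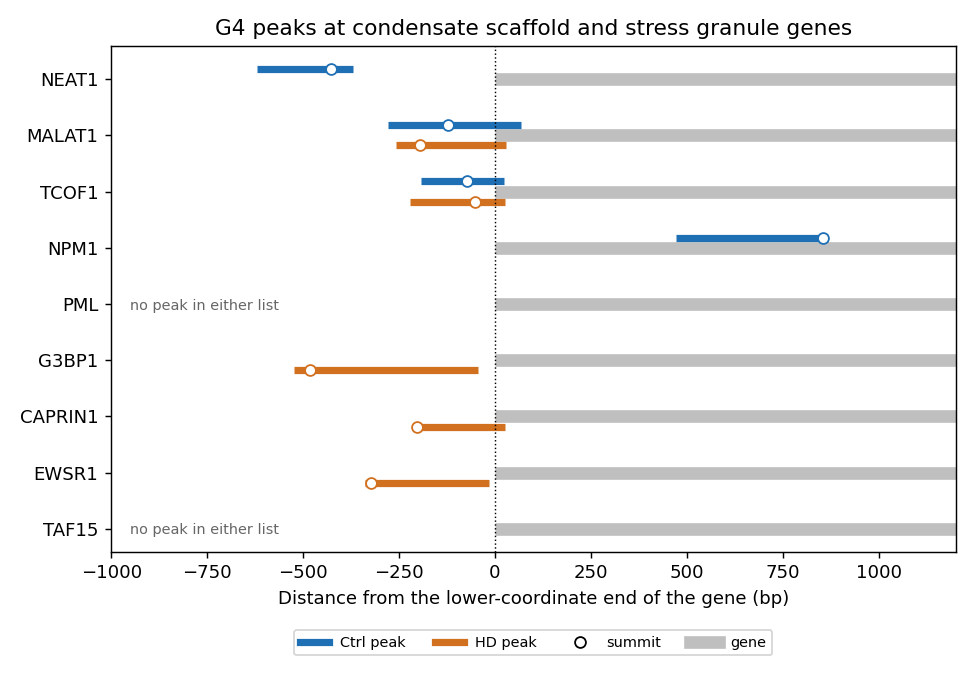
Peak intervals (bars) and summits (circles) of the Ctrl and HD lists, in bp from the lower-coordinate end of each of the 9 genes, with the gene in grey. Except at NPM1, whose summit lay 856 bp inside the gene, all summits lay outside the gene, 52 to 483 bp from its lower end.

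The 2 lncRNA genes lie 52.2 kb apart on chromosome 11 and differed in their HD calls. The NEAT1 peak of the Ctrl list (chr11:65422179-65422429, hg38) lay outside the gene, with its summit 427 bp from the lower gene end. It held 32 fragments (21.9 to 45.2) against 5.40 expected from input on the same scale, a ratio of 5.93 (4.06 to 8.37). The nearest HD peak was 67.4 kb away. At MALAT1, the Ctrl peak (chr11:65497460-65497807) held 24 fragments (15.4 to 35.7) against 3.93 expected, a ratio of 6.11 (3.91 to 9.09). The HD peak (chr11:65497480-65497766) held 35 fragments (24.4 to 48.7) against 9.52 expected, a ratio of 3.68 (2.56 to 5.11). Both MALAT1 peaks covered the first annotated start site and contained the motif printed above. Their summits lay 123 bp (Ctrl) and 195 bp (HD) upstream of that start, 98 and 170 bp from the motif. The second annotated start of MALAT1, 1238 bp from the Ctrl peak, carried no peak, and its window had 46.0% GC and no motif. From NEAT1 to MALAT1 the Ctrl list held 3 peaks and the HD list 1. The Ctrl peak between the genes (chr11:65487560-65487758, 24 fragments) lay at LINC02736, another non-coding gene, 9.98 kb from MALAT1.

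The nucleolar scaffold genes on chromosome 5 also differed in their HD calls. TCOF1 carried a peak across its lower end in both lists, chr5:150357505-150357720 in Ctrl and chr5:150357477-150357723 in HD. The summits were 72 bp and 52 bp outside the gene and 20 bp apart. Ctrl held 37 fragments (26.1 to 51.0) against 7.61 expected, a ratio of 4.86 (3.42 to 6.70). HD also held 37 (26.1 to 51.0), against 6.95 expected, a ratio of 5.33 (3.75 to 7.34). The peaks ended 85 bp (Ctrl) and 57 bp (HD) from the upper end of the lncRNA gene LOC105378226, which is on the minus strand. NPM1 had a Ctrl peak (chr5:171387589-171387984) that covered its second annotated start, with the summit 123 bp downstream of it. The peak held 33 fragments (22.7 to 46.3) against 9.71 expected, a ratio of 3.40 (2.34 to 4.77), the lowest of the 9 member peaks, at the highest input expectation of the 9. The nearest HD peak was 209 kb away. The first annotated start of NPM1, 473 bp from the peak, had a window of 47.7% GC without a motif, against 66.0% at the second.

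The stress granule genes G3BP1 and CAPRIN1 and the FET gene EWSR1 had peaks in HD only, each with its summit upstream of the start site and shared with a gene on the minus strand. At G3BP1 the peak (chr5:151771430-151771911) held 30 fragments (20.2 to 42.8) against 7.0 expected, a ratio of 4.29 (2.89 to 6.12). Its summit was 483 bp upstream of the start, inside the lncRNA gene LOC100652758. At CAPRIN1 the peak (chr11:34051519-34051758) held 25 fragments (16.2 to 36.9) against 6.39 expected, a ratio of 3.92 (2.53 to 5.78). This was the weakest member call, with a −log10 q of 2.25, higher than that of 5.95% of HD peaks. Its summit was 202 bp upstream of the start, inside the lncRNA gene LOC101929918. At EWSR1 the peak (chr22:29267930-29268252) held 32 fragments (21.9 to 45.2) against 7.45 expected, a ratio of 4.30 (2.94 to 6.06). Its summit was 323 bp upstream of the start, inside the coding gene RHBDD3, 218 bp from that gene's upper end. The nearest Ctrl peaks were 77.1 kb (G3BP1), 141 kb (CAPRIN1) and 195 kb (EWSR1) away, where the median for HD peaks without a Ctrl overlap was 82.8 kb. All 3 summits lay inside the neighbour and outside the member, and the window rule marks both genes.

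The FET gene TAF15 and PML had no peak from 1 kb below to 1 kb above the gene. The peaks nearest to TAF15 (35809484 to 35847242 on chromosome 17) were 241 kb away in both lists, at SNHG30, and overlapped each other. The Ctrl peak nearest to PML (73994716 to 74047827 on chromosome 15) was 11.2 kb away at STOML1, and the nearest HD peak was 52.3 kb away. The closest peaks left out by the window at other members were an HD peak 5.70 kb above EWSR1, at GAS2L1, and a Ctrl peak 6.71 kb below TCOF1. Of the peaks inside the window, that of NEAT1 was farthest from its gene, 369 bp. An absent peak means that the caller passed no site there, and it gives no level.

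**Figure D2:**
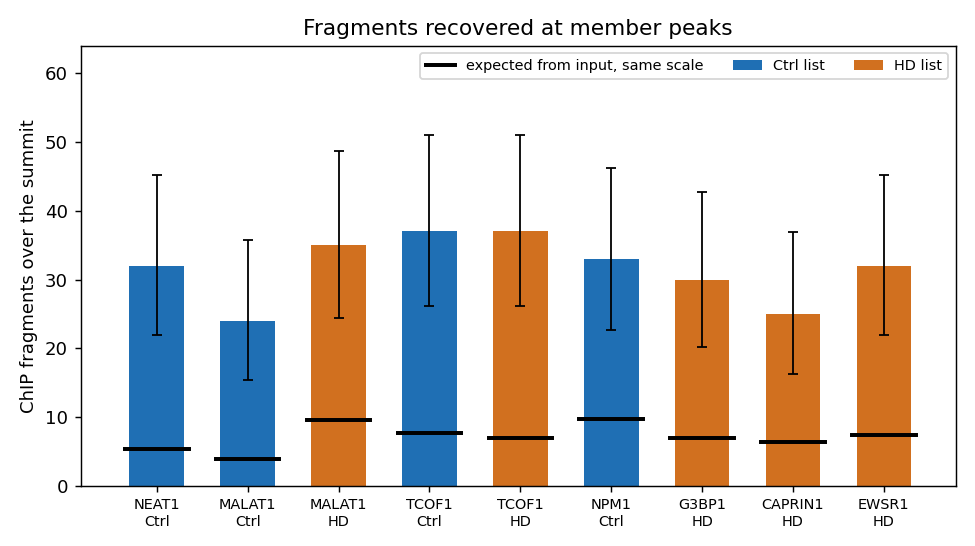
ChIP fragments over the summit of the 9 member peaks (bars, with exact 95% Poisson intervals), and the number expected from input on the same scale (black lines). Numbers run from 24 to 37 against 3.93 to 9.71 expected; HD bars are not scaled for the HD depth, which was 1.41 times that of Ctrl.

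By the authors' fold enrichment over local background, NEAT1, MALAT1 and TCOF1 stood above the middle of the Ctrl list, and most members below the middle of the HD list. In Ctrl, the fold of NEAT1 was 5.11, above that of 79.8% of the list's peaks, and that of MALAT1 was 5.01, above 78.1%. TCOF1 had 4.38, above 58.9%, and NPM1 had 3.16, above 20.2%. In HD, TCOF1 had a fold of 4.60, above 72.5% of the list. The others were lower: EWSR1 had 3.77 (above 39.7%), G3BP1 3.74 (37.9%), CAPRIN1 3.39 (27.7%) and MALAT1 3.33 (25.7%). The 4 members marked in 1 list with a low fold, NPM1, G3BP1, CAPRIN1 and EWSR1, also had their summits near an edge of the peak, 12, 41, 10 and 15 bp from it. The median distance was 92.0 bp in the Ctrl list and 98.0 bp in the HD list, and 2.88%, 8.37%, 1.67% and 2.64% of the peaks of the same list had a summit nearer to an edge. NEAT1, MALAT1 and TCOF1 had theirs 58 to 155 bp from an edge. Of these, NEAT1 (58 bp, 18.6% nearer) and, in HD, MALAT1 (63 bp, 18.2%) and TCOF1 (78 bp, 29.2%) were also below the list medians. In Ctrl, MALAT1 (155 bp, 89.6%) and TCOF1 (95 bp, 53.0%) were above the median. The HD peak of MALAT1 also had a low fold. These edge distances were set side by side after their values were seen.

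**Figure D3:**
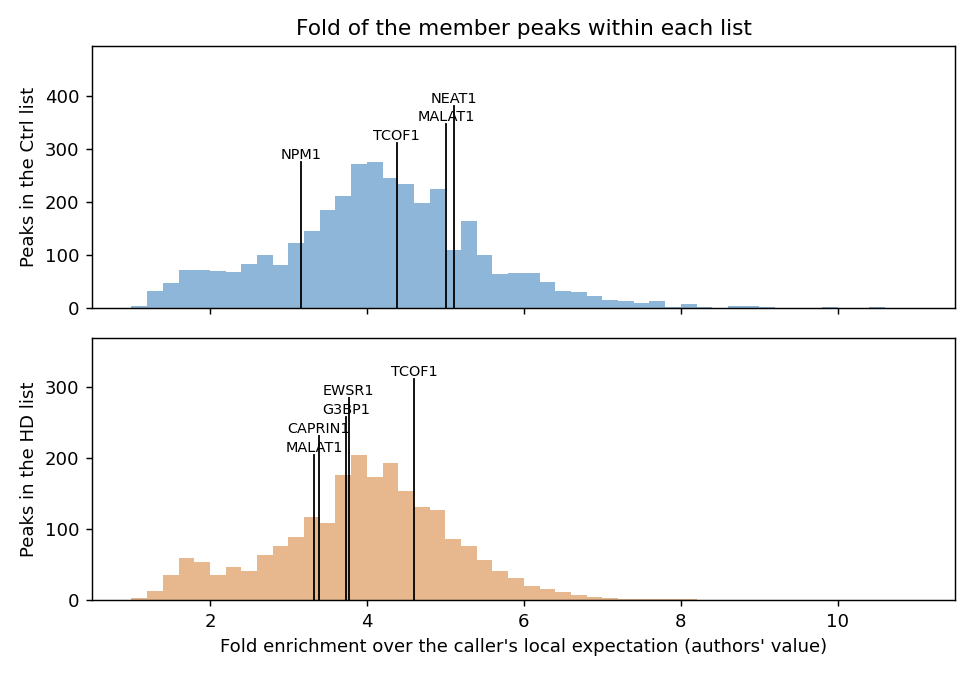
Histograms of the authors' fold enrichment for all peaks of the Ctrl list (top) and HD list (bottom), with a line at each member peak. NEAT1 (5.11) and MALAT1 (5.01) lie right of the Ctrl median of 4.17, and of the HD members TCOF1 alone (4.60) lies right of the HD median of 4.02.

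For the genes marked in both lists, the HD to Ctrl ratio lay above or below 1 depending on the scaling. Scaled by ChIP depth, MALAT1 had 1.04 times (0.60 to 1.82) as many fragments in HD as in Ctrl, and TCOF1 had 0.712 times (0.439 to 1.15). The intervals are exact binomial 95% intervals and both include 1, so neither difference exceeded counting error. With the genome-wide number of fragments over a base as the scale, MALAT1 was at 0.989 and TCOF1 at 0.678. The median by depth over the 1364 Ctrl peaks that overlapped exactly 1 HD peak, on all sequences of the lists, was 0.949, with 80% of pairs from 0.737 to 1.17, and 6.01% of pairs had a lower value than TCOF1. Scaled by the local input expectation instead, MALAT1 had 0.602 times the Ctrl value in HD and TCOF1 1.10 times, against a median of 0.927 over the pairs (0.628 to 1.33). Of the pairs, 7.92% had a lower value than MALAT1. The input expectation at MALAT1 was 1.05 times the genome-wide expectation in Ctrl and 1.73 times in HD, and at TCOF1 it was 2.04 and 1.26 times. The part of the input in these values was not tested. The scalings other than depth were chosen after seeing the data, and no interval was made for the input-scaled ratios.

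**Figure D4:**
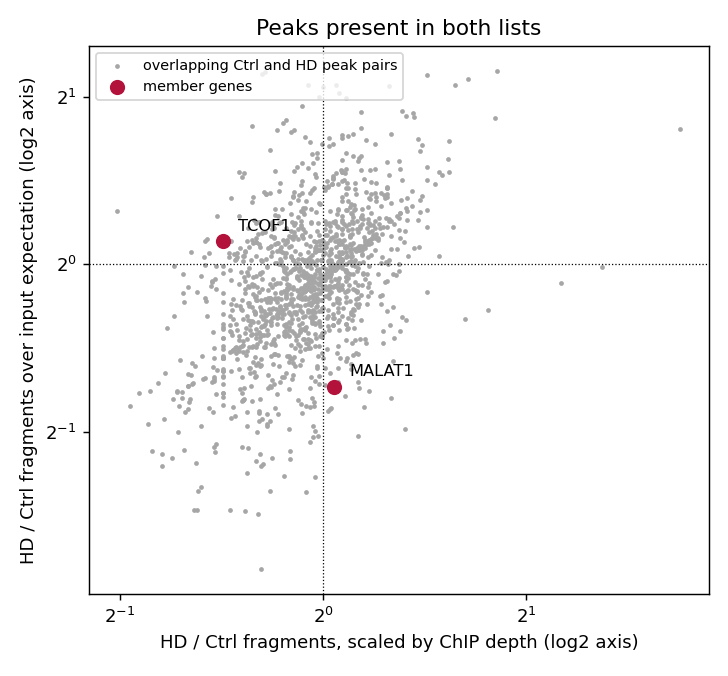
HD to Ctrl ratio of fragments for the 1364 overlapping pairs of peaks, scaled by ChIP depth (x axis) and by the local input expectation (y axis), both on log2 axes, with the member genes in red. TCOF1 lies left of 1 by depth and above 1 by input, and MALAT1 lies near 1 by depth and below 1 by input.

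The 78 genes in 7 lists of other condensate proteins exceeded the marked share of all coding genes, by more in Ctrl than in HD. The Ctrl list marked 21 of the 78 (26.9%, against 13.3% of coding genes), where the coding share gives 10.3 genes. The HD list marked 11 (14.1%, against 9.54%), where it gives 7.44 genes. Stress granule proteins made up 6 of these 11, so the HD excess was not spread over all lists. Among 10 PML body proteins each list marked 1 (10.0%), where the coding share gives 1.33 (Ctrl) and 0.954 (HD). Of the 78, 8 were marked in both lists, 13 in Ctrl only and 3 in HD only. These were 10.3%, 16.7% and 3.85% of the 78, against 6.24%, 7.02% and 3.30% of coding genes, so the HD-only share was near the background. These lists were put together with earlier results of these data known, and some genes are in 2 of them. Among 12 paraspeckle proteins, the partners of NEAT1, Ctrl marked 3, RBM14 (21 fragments) and HNRNPK (18) among them, and HD none. Among 10 nuclear speckle proteins Ctrl marked the splicing factors SRSF1 (41 fragments) and SRSF2 (35), SON (27), a core protein of speckles, and RBM25 (31), and HD none. The peaks at RBM14, HNRNPK, SRSF2, SON and RBM25 also lay within 1 kb of another gene, such as GART at SON. Among 9 P-body proteins, which act in messenger RNA decay and repression, Ctrl marked DCP2 (32 fragments), a decapping enzyme, and EIF4ENIF1 (21), and HD none. At the shares of all coding genes, Ctrl would mark 1.59 paraspeckle, 1.33 nuclear speckle and 1.19 P-body genes. HD would mark 0.859 to 1.14 genes in each of these 3 lists, so the lack of any HD call there is near the background.

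The nucleolar and stress granule lists had genes marked in both conditions. Nucleolin (NCL, 20 fragments in Ctrl and 30 in HD) and NOLC1 (20 and 31) were marked in both lists and NOP56 (18) in Ctrl only, 3 of 13 nucleolar genes. At the shares of all coding genes, 1.72 nucleolar genes would be marked in Ctrl and 1.24 in HD. Of 18 stress granule proteins besides G3BP1 and CAPRIN1, each list marked 6, where the shares of all coding genes give 2.39 (Ctrl) and 1.72 (HD). Marked in both were 3 of them, ATXN2L (22 and 35 fragments) and YTHDF1 (35 and 61) included. TIA1 (23), FXR1 (20) and YTHDF3 (25) were marked in Ctrl only, and YTHDF2 (30), CELF1 (40) and NUFIP2 (39) in HD only. Each of these 3 classes held 16.7% of the 18 genes, against 6.24% (both), 7.02% (Ctrl only) and 3.30% (HD only) of coding genes. The m6A readers YTHDF1, YTHDF2 and YTHDF3 were in different classes, but an absent peak gives no level, so a difference between them was not tested. Among 8 proteins with prion-like domains, Ctrl marked 3 and HD 2, where the shares of all coding genes give 1.06 and 0.763. KHDRBS1 (29 and 27 fragments) and HNRNPA3 (27 and 34) were marked in both lists. Peaks at NOP56, TIA1, YTHDF3, ATXN2L and HNRNPA3 also lay within 1 kb of another gene. HD numbers in these sentences are not scaled for depth.

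**Figure D5:**
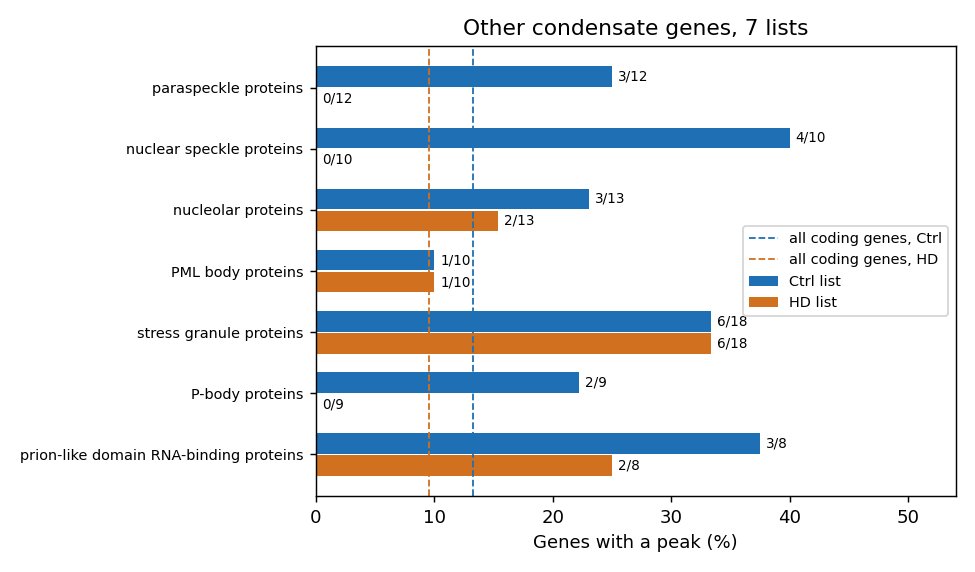
Percent of genes with a peak in 7 lists of other condensate proteins, for the Ctrl and HD lists, with counts at the bars and dashed lines at the share of all protein-coding genes (13.3% and 9.54%). Stress granule proteins have 6 of 18 in each list, and paraspeckle, nuclear speckle and P-body proteins have none in HD, where the dashed line stands for 0.859 to 1.14 genes in each of these lists.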

How the data were processed

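BG4 ChIP-seq was measured in 2 Ctrl and 2 HD ChIP libraries with 1 input each. Per the submitters' processing notes, the authors named the build hg38 and used MACS2 2.2.7.1, Bowtie2 2.5.0, SAMtools and FastQC 0.11.9, with no settings named. For each condition the authors deposited a single list of peaks, with a score, a fold enrichment (ratio) over the local expectation, −log10 p and −log10 q for each peak, and a summit.

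Whole fragment numbers were recovered from fold and p, since the caller's fold is (pileup + 1) / (expectation + 1) and its p an upper Poisson tail. To within 0.01 in −log10 p, a whole number was found for 3506 of 3507 Ctrl peaks and 2269 HD peaks. All 9 member peaks had a single match. In the deposited lists, 3.31% of Ctrl peaks and 4.23% of HD peaks had more than 1 matching number. In the simulated lists, 100% of 1500 fragment numbers per list were recovered. The simulation used the same formulas as the recovery, so it cannot show that they hold for the deposited peaks. The scales were 0.927 and 0.715 and the genome-wide expectations 3.46 and 3.94. Steps of the local expectation gave fragment lengths of 190.7 and 200.15 bp, from which depth followed.

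Genes came from the RefSeq table (GRCh38.p14, 59792 genes), which has no strand. Rows of a chromosome after its starts fall back were taken as scaffold genes and left out. Of the members, 5 had promoter entries and NEAT1, TCOF1, PML and TAF15 had none. All 9 members are named, and the marked genes of the other lists, except some that are not reported here. The members and gene lists were chosen with earlier results of these data known. Python 3.11.15 with scipy 1.17.1 was used. Alternatives varied the window, the overlap, the threshold and the list length.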

Additional observations from a re-analysis of the deposited data

How the results depend on the processing

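With windows of 500 bp or 2 kb, with gene ends only, and with the summit required inside the window, the same 4 members were marked in Ctrl and the same 5 in HD. At −log10 q of at least 3, CAPRIN1 lost its HD call and 4 members were left in HD. With 2269 peaks taken from each list, NPM1 lost its Ctrl call and 3 members were left in Ctrl. At that length the coding shares were 9.33% in Ctrl and 9.54% in HD, where the full lists gave 13.3% and 9.54%. MALAT1 and TCOF1 were marked in both lists under all 6 of these alternatives. Their 4 peaks also overlapped under 3 other overlap rules: the summit inside the other peak, at least 50% of the shorter peak, and peaks within 500 bp. Taking the middle of the peak in place of the summit changed 5 of 9 distances to the gene end by more than 1.5 times: to 93 bp at CAPRIN1, 97 bp at TCOF1 in HD, 115 bp at MALAT1 in HD, 177 bp at EWSR1 and 284 bp at G3BP1. The scalings by genome-wide fragments over a base and by the local input expectation were both chosen after seeing the data. The first gave HD to Ctrl ratios of 0.989 at MALAT1 and 0.678 at TCOF1, and the second gave 0.602 and 1.10. No second fragment number matched any member peak. No paired analysis was possible because each condition has 1 peak list and no value per library, and no replicate could be left out for the same reason. No fragment number was recovered where a list had no peak, so whether the signal at the 5 members marked in a single list differed between the conditions, and how far depth limits it, was not tested.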
